A study of Homo sapiens with 12 samples.

Results

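Hypoxia response and glycolysis genes, 43 in number, were followed in U251, an established human glioblastoma cell line. The members were taken by gene symbol from the count table, where all 43 were found among 20289 genes. They comprise 4 glucose and lactate transporters, 15 glycolytic enzymes, 6 regulators of glycolytic flux and pyruvate fate, 4 hypoxia-inducible factor (HIF) subunits and oxygen sensors, and 14 other genes known to be induced by low oxygen. Poly(A) RNA was sequenced in 12 libraries, 3 in each of 4 groups. The groups were U251 with a CD44 short hairpin RNA and 50 µM temozolomide (knockdown temozolomide), the same knockdown with DMSO (knockdown DMSO), control cells with 50 µM temozolomide (control temozolomide), and U251 with a control short hairpin RNA and DMSO (control DMSO). CD44 is the cell-surface receptor for hyaluronan, temozolomide is a DNA-alkylating drug given against glioblastoma, and DMSO is its solvent. Exposure lasted 24 h in every group, in high-glucose medium, and the labels name no low-oxygen treatment. The labels mark the control temozolomide cells NC and wild type, which was read as the control hairpin. The number of hairpins or clones behind the knockdown is not stated. Neither is it stated that replicate libraries came from different cultures, and the p-values therefore measure only the spread between libraries.

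In the HIF pathway, prolyl hydroxylases of the EGLN family use oxygen to mark HIF alpha subunits, which the VHL ubiquitin ligase then sends for degradation. When oxygen is short the alpha subunits persist, pair with ARNT and bind short DNA elements beside genes for glucose uptake, glycolysis, lactate export, pH control and mitophagy. Many glycolytic enzymes are also well expressed with oxygen present, in tumour cells above all, and glioblastoma is known for both high glycolysis and hypoxic zones. Regulation of HIF alpha is mainly at the protein level, which RNA sequencing does not measure.

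CD44 RNA was 320, 326 and 333 CPM (counts scaled to a library of 1e6, with edgeR's TMM factors) in knockdown temozolomide and 851, 808 and 804 CPM in control temozolomide. It was 421, 419 and 419 CPM in knockdown DMSO and 1127, 1102 and 1043 CPM in control DMSO. The hairpin's target therefore stood lower in every knockdown library, by 1.33 and 1.38 on the log2 scale with temozolomide and DMSO. Library totals ran from 13.5 to 24.8 in units of 1e6 counts, so 3 counts correspond to 0.121 to 0.222 CPM, a limit that covers counting error only. Among markers of the line, VIM averaged 2517 to 3842 CPM over the groups. NES averaged 57.6 CPM in knockdown temozolomide, 77.5 CPM in knockdown DMSO, 34.6 CPM in control temozolomide and 42.6 CPM in control DMSO, and SOX2 275, 292, 399 and 389.9 CPM in the same order. The glial markers GFAP (0.417 to 1.27 CPM) and S100B (0.169 to 0.319 CPM) were near the floor and OLIG2 was at 0 in 3 groups. Markers of blood cells (PTPRC, CD14, HBB) stayed below 1 CPM. Of 5 epithelial markers, EPCAM and CDH1 averaged at most 0.144 CPM while KRT8, KRT18 and KRT14 were expressed. KRT14 averaged 62.4 CPM in knockdown temozolomide, 106 CPM in knockdown DMSO, 194 CPM in control temozolomide and 259 CPM in control DMSO. Of 3 endothelial markers, PECAM1 and VWF averaged at most 0.710 CPM, and CDH5 averaged 12.6, 27.7, 21.6 and 44.1 CPM in the same order of groups. The part of these differences in the results below was not tested.

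With both interventions more members fell than rose. With the CD44 hairpin under DMSO, 27 members fell, 4 rose and 12 were not called, with a median log2 fold change of -0.19, where 42.6% of all tested genes were called. Under temozolomide, the knockdown lowered 24 members, raised 5 and left 14 not called (median -0.14), where 42.3% of all tested genes were called. Temozolomide lowered 21 members, raised 3 and left 19 not called in control cells (median -0.15), where 27.5% of all tested genes were called. In knockdown cells it lowered 21, raised 2 and left 20 not called (median -0.14), where 22.3% of all tested genes were called. Calls rest on edgeR's quasi-likelihood test over 12821 genes, with a Benjamini-Hochberg adjusted p under 0.05 as the threshold, and all 43 members passed the filter on low counts.

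Beside all tested genes, falls made up a larger share of the members. In the knockdown under DMSO, 62.8% of members fell and 9.30% rose, against 21.4% falling and 21.1% rising among all tested genes. In the knockdown under temozolomide, 55.8% of members fell and 11.6% rose, against 20.3% falling and 22.0% rising among all. In control cells given temozolomide, 48.8% of members fell and 6.98% rose, against 15.8% falling and 11.7% rising among all. In knockdown cells given temozolomide, 48.8% of members fell and 4.65% rose, against 13.2% falling and 9.05% rising among all. The median log2 fold change of all tested genes lay between -0.00 and 0.01 in every comparison. The members are also highly expressed genes, with a median of 110 CPM against 30 CPM for all tested genes, and more counts make small changes easier to call.

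**Figure D1:**
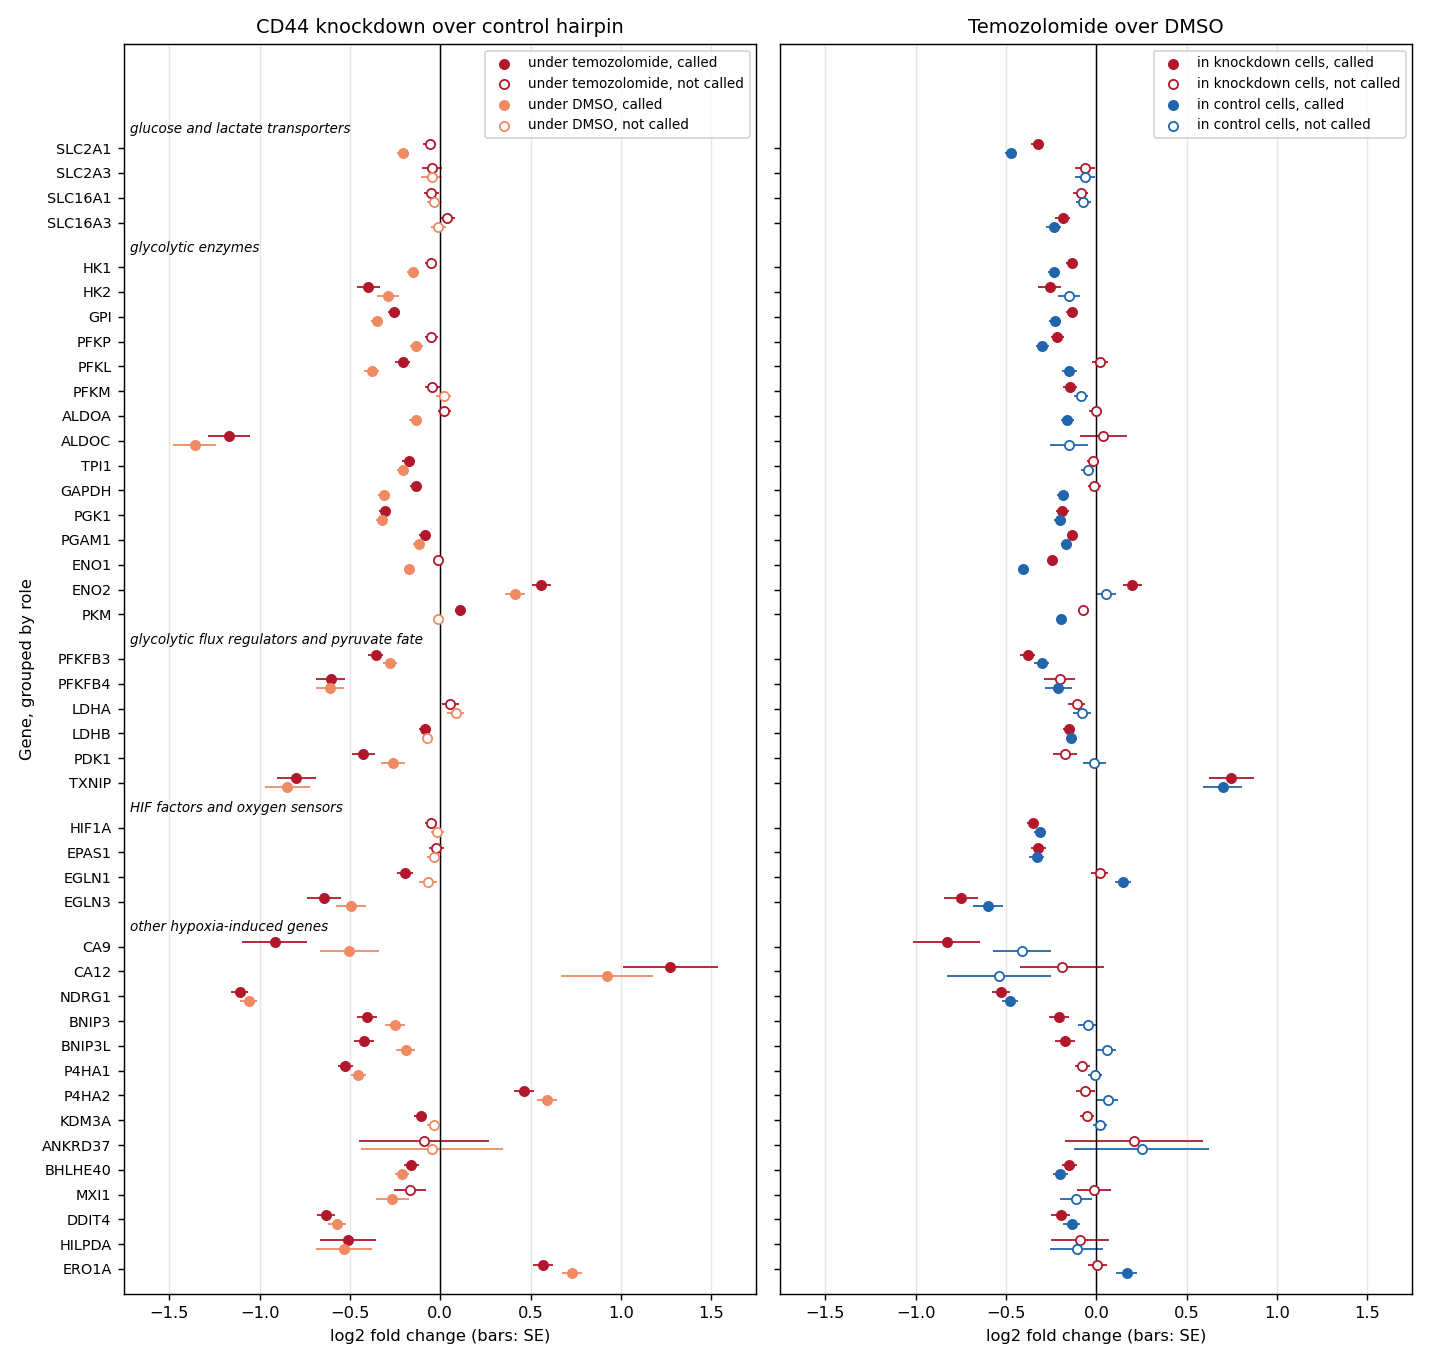
Log2 fold change of each of the 43 members with its standard error (bars), by role: CD44 knockdown over control on the left, temozolomide over DMSO on the right. Filled points passed the test at an adjusted p below 0.05. Most filled points lie left of 0, TXNIP is the only member over 0.5 on the right, and ENO2, CA12, P4HA2 and ERO1A stand right of 0 on the left.

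The scaling changed the counts of members and of all genes. Scaled by library totals alone, 61.0% of all called genes rose in the knockdown under DMSO against 49.7% with TMM factors, and 61.9% against 52.0% in the knockdown under temozolomide. For temozolomide the shares were 68.9% against 42.6% in control cells and 70.1% against 40.6% in knockdown cells. In limma's fit to log2(FPKM + 1) they were 65.3% in control cells and 66.2% in knockdown cells. Members that fell still outnumbered those that rose under library totals, with 26 against 5, 21 against 5, 16 against 3 and 13 against 2 in the order of comparisons above. Base composition also differed between groups: genes above 60% GC, relative to genes below 40% GC, stood at 0.15, 0.07 and 0.22 on the log2 scale in the control DMSO libraries and between -0.13 and 0.08 in the other 9. With a correction for GC content in each library, 27 members fell and 5 rose in the knockdown under DMSO, and 23 fell and 5 rose under temozolomide. For temozolomide the corrected counts were 19 fallen and 2 risen in control cells and 22 fallen and 2 risen in knockdown cells. In a bulk library, fewer cells of a kind and less RNA per cell cannot be told apart.

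The same members answered in both backgrounds more often than not. Of the 27 members that fell with the knockdown under DMSO, 21 (77.8%) also fell with it under temozolomide, which is 87.5% of the 24 that fell there. All 4 that rose under DMSO (CA12, ENO2, ERO1A, P4HA2) were among the 5 that rose under temozolomide, where PKM was the other. For temozolomide, 16 members fell in both control and knockdown cells, 76.2% of each list, and TXNIP was the only member to rise in both. No member was called in opposite directions. Across all tested genes, the falls shared between the knockdown comparisons were 65.8% of the list under DMSO and 69.5% of the list under temozolomide. Those shared between the temozolomide comparisons were 54.3% of the list in control cells and 64.9% of the list in knockdown cells. Shared rises of all tested genes were 70.7% and 67.9% of the knockdown lists under DMSO and temozolomide. For temozolomide they were 34.7% and 45% of the lists in control and knockdown cells. Opposite calls were rare among all 12821 genes too. Of the rises and falls in the first list of each pair, 9 and 11 were opposite for the knockdown, and 15 and 6 for temozolomide. ANKRD37, LDHA, SLC16A1 and SLC2A3 were the members called in none of the 4 comparisons in the main fit.

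The 250 bases before each RefSeq start were searched for the core of the HIF response element, ACGTG or GCGTG on either strand, since most members are known HIF targets. RefSeq promoters (GRCh38.p14) were at hand for 38 members, with 69 starts. At least 1 core stood before 62.3% of these starts, against 54.5% for the promoters of tested genes and 43.2% of all 35116 promoters in the table. For ACGTG the shares were 39.1%, 21.9% and 18.5%, and for GCGTG 36.2%, 43.1% and 32.2%. CACGTG, which holds ACGTG on both strands, stood before 13% of members' starts, 7.97% of those of tested genes and 6.34% of all. Median GC content of these stretches was 68.4%, 64.4% and 58.0%, and its part in these shares was not tested. EGLN3, LDHB, P4HA2, PGAM1, PKM and SLC2A1 had no core in this window before any of their starts. Shares by gene, which depend on the number of starts, were not compared with those of tested genes. A match is a description of letters, not a bound site. The lines below give 30 bases around the ACGTG nearest a start, or around GCGTG for PFKFB4, which has no ACGTG there, 5′ to 3′ on the gene's strand with the core in capitals, for 8 members whose RNA changed by 0.5 or more on the log2 scale in at least 1 comparison.
ALDOC (chr17:28576906-28576935, minus strand): ccccggaggagtCACGTagctctgcgacat
ENO2 (chr12:6914450-6914479, plus strand): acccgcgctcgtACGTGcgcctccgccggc
PFKFB4 (chr3:48556952-48556981, minus strand): tgagttgggcatGCGTGgtcggaggccggg
TXNIP (chr1:145995889-145995918, minus strand): gtggtttgaattACGTGttgttgcttcctt
CA9 (chr9:35673898-35673927, plus strand): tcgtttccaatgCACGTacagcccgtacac
P4HA1 (chr10:73096935-73096964, minus strand): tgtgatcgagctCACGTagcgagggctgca
DDIT4 (chr10:72273787-72273816, plus strand): agaacgttgcttACGTGcgcccggagtcca
ERO1A (chr14:52695655-52695684, minus strand): cgggcgccgcggCACGTccacaggctgggt

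The core shown for CA9 began 18 bases before the start, the closest of these 8, and that for ALDOC 28 bases before it. The others shown lay between 86 bases (P4HA1) and 166 bases (PFKFB4) from the start. DDIT4, and TXNIP at its other start, also hold a GCGTG nearer to the start, which is not shown. In the GENCODE v29 annotation, which lists further starts, the windows of ALDOC, ENO2, CA9, P4HA1 and ERO1A overlap an exon of the gene. Those of PFKFB4 and TXNIP fall in introns, and that of DDIT4 lies outside any annotated gene. The CA9 window also overlaps the gene ARHGEF39, and the ALDOC window the gene AC005726.1. Both directions of change occur among members with a core: ENO2 and ERO1A rose with the knockdown, and ALDOC, PFKFB4, TXNIP, CA9, P4HA1 and DDIT4 fell.

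Glycolysis in these cells was carried at very unequal RNA levels, compared here per transcript length as deposited FPKM. GAPDH averaged 4075 ± 214 FPKM in knockdown temozolomide, 3933 ± 102 in knockdown DMSO, 4365 ± 15.3 in control temozolomide and 4740.4 ± 222 in control DMSO (SD, n = 3 each). ENO1 (1882 to 2375 FPKM over group means) and PKM (1056 to 1158 FPKM) followed, and TPI1, LDHB, ALDOA, PGAM1 and GPI lay between 237 and 887 FPKM. The less abundant isoforms stood far below them, with HK2 at 5.27 to 7.16 FPKM, ALDOC at 5.32 to 13.3 FPKM, and SLC2A3 at 9.74 to 9.83 FPKM. LDHA, the lactate dehydrogenase subunit most often raised in tumours, averaged only 31.1 to 33.8 FPKM, against 609 to 658 FPKM for LDHB. GAPDH, PGK1, PGAM1, ENO1, TPI1, LDHA and LDHB have near-identical processed pseudogenes in the human genome, and SLC2A3 a close paralog, SLC2A14, so their levels depend on how the authors shared reads.

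**Figure D2:**
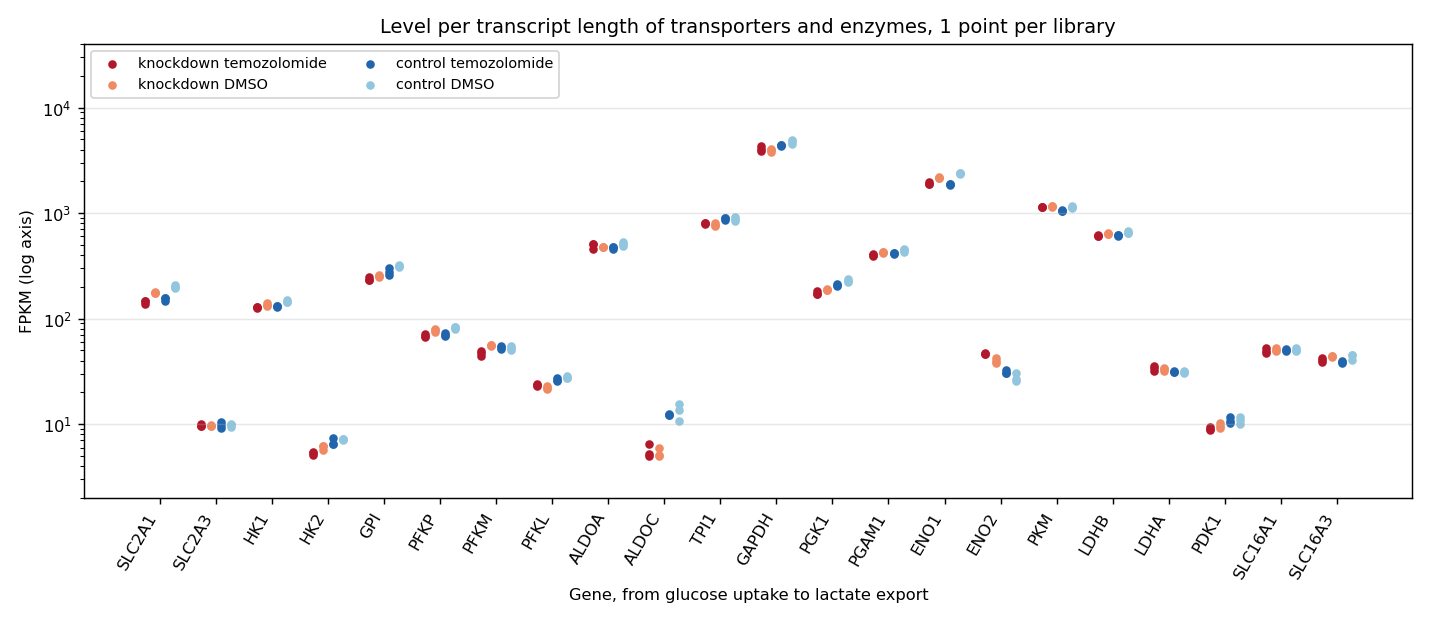
FPKM on a log axis for the transporters and enzymes, ordered from glucose uptake to lactate export, with 1 point per library in the 4 groups. Levels span from HK2 (5.27 to 7.16 FPKM over group means) to GAPDH (3933 to 4740.4 FPKM), and ALDOC and ENO2 show the widest separation between knockdown and control libraries.

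Among transporters, SLC2A1 (GLUT1, the main glucose importer of the blood-brain barrier and many tumours) responded to temozolomide above all. SLC2A1 had 371, 378 and 359.7 CPM in knockdown temozolomide, 451, 479 and 461 CPM in knockdown DMSO, 397, 389 and 369 CPM in control temozolomide and 531, 541 and 532 CPM in control DMSO. Every temozolomide library lay below every DMSO library. The log2 fold change was -0.47 (SE 0.03, adjusted p = 2.5e-09, edgeR's quasi-likelihood test) for temozolomide in control cells and -0.33 (SE 0.03, adjusted p = 6.1e-07) in knockdown cells. The knockdown lowered SLC2A1 under DMSO by 0.21 on the log2 scale (SE 0.03, adjusted p = 5.4e-05, edgeR), while under temozolomide the groups overlapped (-0.06, adjusted p = 0.187, edgeR). SLC16A3 (MCT4, a lactate exporter) fell with temozolomide in both kinds of cells, at -0.24 in control and -0.19 in knockdown cells. The second call was lost in the FPKM fits (adjusted p = 0.0930 in limma on log2(FPKM + 1)). Its knockdown values were 0.04 under temozolomide and -0.01 under DMSO, the second being called with the GC correction (0.13, adjusted p = 0.00493, edgeR). SLC16A1 (MCT1, a lactate transporter) and SLC2A3 (GLUT3, the neuronal glucose importer) were called in no comparison of the main fit. With the GC correction SLC16A1 was called for temozolomide in control cells (-0.11, adjusted p = 0.0248, edgeR). In knockdown cells its temozolomide change was called without knockdown temozolomide replicate 3 (-0.13, adjusted p = 0.0306, edgeR). Summed over the 4 transporters, the level was 690.2 ± 7.26 CPM in knockdown temozolomide, 811 ± 10.8 in knockdown DMSO, 711 ± 7.49 in control temozolomide and 889 ± 6.71 in control DMSO (SD, n = 3 each).

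Among the glycolytic enzymes more fell than rose in each of the 4 comparisons. With the knockdown under DMSO 12 of 15 fell and 1 rose (median log2 fold change -0.17), and under temozolomide 8 fell and 2 rose (median -0.09). Temozolomide lowered 10 and raised none in control cells (median -0.17), and lowered 8 and raised 1 in knockdown cells (median -0.14). Falls thus made up 80.0% and 53.3% of the enzymes with the knockdown under DMSO and temozolomide, against 21.4% and 20.3% of all tested genes. With temozolomide they made up 66.7% in control and 53.3% in knockdown cells, against 15.8% and 13.2% of all. The summed level of the 15 enzymes was 14983 ± 317 CPM in knockdown temozolomide, 16010.0 ± 265 in knockdown DMSO, 15728 ± 44.9 in control temozolomide and 18401 ± 539 in control DMSO (SD, n = 3 each). Every control DMSO library was above the 9 others, and GAPDH, ENO1 and PKM held most of this sum.

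ALDOC, the brain form of aldolase, which splits fructose bisphosphate, changed most with the knockdown among the enzymes. Its level was 9.94, 8.17 and 7.97 CPM in knockdown temozolomide, 8.06, 8.24 and 9.0 CPM in knockdown DMSO, 19.7, 19.1 and 19.96 CPM in control temozolomide and 22.4, 17.4 and 25.2 CPM in control DMSO. All 6 knockdown libraries were below all 6 control libraries. The knockdown changed ALDOC by -1.17 on the log2 scale under temozolomide (SE 0.12, adjusted p = 6.4e-08, edgeR's quasi-likelihood test) and by -1.36 under DMSO (SE 0.12, adjusted p = 7.9e-09). Temozolomide gave 0.04 (adjusted p = 0.868, edgeR) in knockdown cells and -0.15 (adjusted p = 0.312) in control cells, with overlapping groups. ALDOA, the widespread aldolase, changed far less: its knockdown values were 0.02 under temozolomide, not called, and -0.14 under DMSO, a call lost in the FPKM fits (adjusted p = 0.153 in limma on log2(FPKM + 1)).

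ENO2, the neuronal enolase, ran the other way. It had 90.8, 93.2 and 94.7 CPM in knockdown temozolomide, 81.8, 78.1 and 82.9 CPM in knockdown DMSO, 61.1, 64.2 and 64.0 CPM in control temozolomide and 55.3, 59.0 and 67.6 CPM in control DMSO. Knockdown libraries lay above control libraries without overlap. The log2 fold change was 0.56 (SE 0.05, adjusted p = 3.6e-08, edgeR) under temozolomide and 0.41 (SE 0.06, adjusted p = 3.9e-06) under DMSO. Temozolomide raised ENO2 in knockdown cells by 0.20 (SE 0.05, adjusted p = 0.0101, edgeR), a call that was lost without knockdown DMSO replicate 2 (0.17, adjusted p = 0.0644). In control cells it was 0.05 and not called, and called without control DMSO replicate 3 (0.14, adjusted p = 0.0484).

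ENO1, the main enolase, fell with temozolomide in both kinds of cells. Its levels were 3299, 3187 and 3226 CPM in knockdown temozolomide, 3847, 3894 and 3763 CPM in knockdown DMSO, 3284, 3231 and 3292 CPM in control temozolomide and 4386, 4247 and 4343 CPM in control DMSO. The groups with temozolomide overlapped each other and lay below both DMSO groups, of which control DMSO was the higher. Temozolomide changed ENO1 by -0.24 on the log2 scale in knockdown cells (SE 0.03, adjusted p = 5.6e-07, edgeR) and by -0.40 in control cells (SE 0.03, adjusted p = 5.1e-10). The knockdown changed it by -0.17 under DMSO (SE 0.03, adjusted p = 1.3e-05, edgeR) and by -0.01 under temozolomide, not called. The difference between the temozolomide responses was 0.16 (SE 0.04, adjusted p = 0.0393, edgeR), the only one called among the 43 members.

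Of the remaining enzymes, GPI, PFKL, PGK1, TPI1 and GAPDH fell with the knockdown under both treatments, as did HK2 and PGAM1. The GAPDH call under temozolomide was lost in the FPKM fits (adjusted p = 0.151 in limma on log2(FPKM + 1)). GPI, which converts glucose phosphate to fructose phosphate, changed by -0.26 under temozolomide and -0.35 under DMSO. PGK1, which makes the first ATP of the pathway, changed by -0.31 and -0.32, and HK2, the inducible hexokinase, by -0.40 and -0.29. These 3 genes have SEs of 0.03 to 0.06 and non-overlapping groups. Calls for PGAM1 under temozolomide were lost without control temozolomide replicate 1 (adjusted p = 0.0558, edgeR) or replicate 2 (0.0800), without knockdown temozolomide replicate 2 (0.0596) or replicate 3 (0.0994), and under library totals. In the FPKM fits PGAM1 lost its calls under temozolomide and DMSO (adjusted p = 0.25 and 0.0821 in limma on log2(FPKM + 1)). PKM, pyruvate kinase, rose by 0.11 with the knockdown under temozolomide (SE 0.03, adjusted p = 0.00201, edgeR) and was at -0.02 under DMSO. With temozolomide PKM fell by 0.19 in control cells, and in knockdown cells it was at -0.07, just short of the threshold (adjusted p = 0.0515, edgeR). This fall in knockdown cells was called in DESeq2 (adjusted p = 0.00665). In edgeR it was called with the GC correction (0.0132) and with relative log expression scaling (0.0275). It was also called in edgeR without control DMSO replicate 1 (0.0479), 2 (0.0245) or 3 (0.0244). PFKP, the phosphofructokinase of platelets and many tumours, fell with temozolomide in both kinds of cells, by 0.22 in knockdown and 0.30 in control cells. PFKM, the muscle form, fell with temozolomide in knockdown cells (-0.15), a call lost without knockdown temozolomide replicate 2 (adjusted p = 0.0661, edgeR) and under library totals (0.131). PFKL, the liver form, fell by 0.15 with temozolomide in control cells, a call lost without control DMSO replicate 1 (adjusted p = 0.0635, edgeR) and with the GC correction (0.347). The PFKL call was also lost under library totals (adjusted p = 0.132, edgeR) and in the FPKM fits (0.191 in limma on log2(FPKM + 1)).

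**Figure D3:**
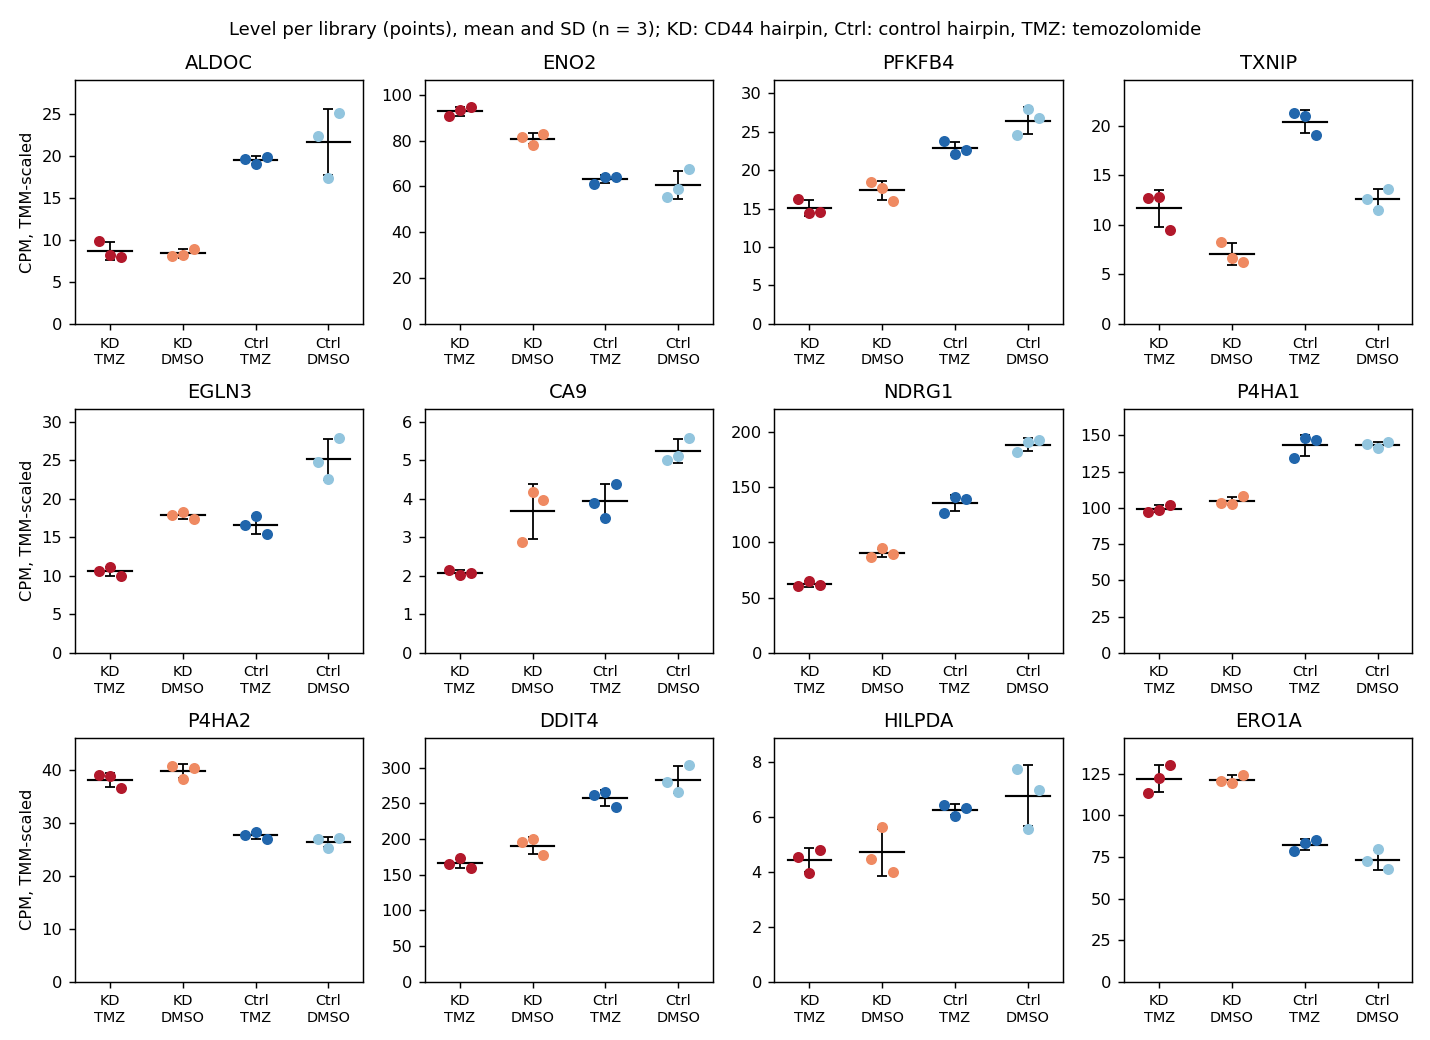
CPM per library (points) with the group mean and SD (lines, n = 3) for the 12 members that changed by at least 0.5 on the log2 scale in a called comparison and reached a mean of 5 CPM in the highest group, knockdown (KD) left of control (Ctrl). ALDOC, P4HA1, P4HA2 and ENO2 separate by hairpin, TXNIP and EGLN3 by hairpin and drug.

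Among the regulators of flux, the bifunctional enzymes PFKFB3 and PFKFB4 fell with the knockdown. They set the level of a fructose bisphosphate that activates phosphofructokinase, a different isomer from the one that aldolase splits. PFKFB4 had 16.2, 14.4 and 14.5 CPM in knockdown temozolomide, 18.4, 17.6 and 16.0 CPM in knockdown DMSO, 23.8, 22.1 and 22.6 CPM in control temozolomide and 24.6, 28.0 and 26.7 CPM in control DMSO. All knockdown libraries were below all control libraries. The log2 fold change was -0.61 under temozolomide (SE 0.08, adjusted p = 3.1e-06, edgeR) and -0.61 under DMSO (SE 0.08, adjusted p = 2.3e-06). Temozolomide gave -0.20 in knockdown cells, not called, and -0.21 in control cells, a weak call (adjusted p = 0.0433, edgeR) that was lost without control DMSO replicate 2 (0.167) or 3 (0.108), knockdown DMSO replicate 2 (0.0562), and control temozolomide replicate 2 (0.133) or 3 (0.105). It was also lost under DESeq2 (0.0817), without the low-count filter (0.0636), and under library totals, the GC correction and the FPKM fits. PFKFB3 averaged 111 ± 4.57 CPM in knockdown temozolomide, 144 ± 7.59 in knockdown DMSO, 142 ± 1.44 in control temozolomide and 175 ± 1.27 in control DMSO (SD, n = 3 each). It fell in all 4 comparisons, by 0.28 to 0.38 on the log2 scale.

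TXNIP, an arrestin-like protein known to bind thioredoxin and to restrain glucose uptake, was lowered by the knockdown and raised by temozolomide. Its levels were 12.7, 12.8 and 9.47 CPM in knockdown temozolomide, 8.26, 6.64 and 6.25 CPM in knockdown DMSO, 21.2, 20.9 and 19.0 CPM in control temozolomide and 12.6, 11.5 and 13.6 CPM in control DMSO. Within each treatment and within each kind of cells the groups did not overlap. The knockdown changed TXNIP by -0.80 under temozolomide (SE 0.11, adjusted p = 4.6e-06, edgeR) and by -0.85 under DMSO (SE 0.13, adjusted p = 1.4e-05). Temozolomide changed it by 0.75 in knockdown cells (SE 0.13, adjusted p = 2.0e-04, edgeR) and by 0.70 in control cells (SE 0.11, adjusted p = 6.5e-05). The difference between the responses was 0.05 (SE 0.17, not called), and the level in knockdown cells with temozolomide was close to that in control cells without it.

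For pyruvate, PDK1, the kinase that switches off pyruvate dehydrogenase, fell with the knockdown by 0.43 under temozolomide (SE 0.06, adjusted p = 1.8e-05, edgeR) and by 0.26 under DMSO (SE 0.06, adjusted p = 0.00247). The call under DMSO was lost in the FPKM fits (adjusted p = 0.108 in limma on log2(FPKM + 1)). LDHB, which with LDHA interconverts pyruvate and lactate, fell by 0.15 with temozolomide in knockdown cells, a call lost in the FPKM fits (adjusted p = 0.191 in limma on log2(FPKM + 1)), and by 0.14 in control cells, a call lost under library totals (0.0659, edgeR). With the knockdown LDHB fell by 0.09 under temozolomide (adjusted p = 0.0208, edgeR) and was at -0.07 under DMSO, not called (0.0521). The change under DMSO was called in DESeq2 (adjusted p = 0.0320). In edgeR it was called with the GC correction (0.00954) and with a block for replicate number (0.0468). It was also called in edgeR without control temozolomide replicate 1 (0.0484) or knockdown temozolomide replicate 3 (0.0455). The call under temozolomide was lost without control temozolomide replicate 2 (adjusted p = 0.0714, edgeR) or 3 (0.0686) or knockdown temozolomide replicate 2 (0.0653). It was also lost under library totals (-0.05, adjusted p = 0.172, edgeR) and in the FPKM fits (-0.015, adjusted p = 0.748 in limma on log2(FPKM + 1)). LDHA lay between 55.7 and 66.1 CPM in all 12 libraries, with log2 fold changes of -0.11 to 0.08, none of them called. Under library totals LDHA was called in the knockdown under DMSO (0.13, adjusted p = 0.0395, edgeR).

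The HIF alpha subunits fell with the drug and were not called with the hairpin. HIF1A had 542, 576 and 547 CPM in knockdown temozolomide, 699.8, 709 and 713 CPM in knockdown DMSO, 568, 571 and 588 CPM in control temozolomide and 723, 743 and 680.0 CPM in control DMSO. EPAS1, which encodes HIF-2 alpha, averaged 139 ± 2.66 CPM in knockdown temozolomide, 174 ± 7.15 in knockdown DMSO, 141 ± 6.25 in control temozolomide and 178 ± 7.52 in control DMSO (SD, n = 3 each). Every temozolomide library of either gene was below every DMSO library. Temozolomide changed HIF1A by -0.35 in knockdown cells (SE 0.03, adjusted p = 2.4e-07, edgeR) and by -0.31 in control cells (SE 0.03, adjusted p = 1.1e-06), and EPAS1 by -0.32 and -0.33 (SE 0.04 each, adjusted p = 1.1e-05 and 6.1e-06). With the knockdown HIF1A was at -0.05 and -0.02 and EPAS1 at -0.02 and -0.03 under temozolomide and DMSO, none of them called. With the GC correction, HIF1A was called in the knockdown under DMSO, at -0.09 (adjusted p = 0.0244).

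EGLN3, the oxygen-sensing prolyl hydroxylase that is itself a known HIF target, fell in every comparison. It had 10.6, 11.1 and 9.98 CPM in knockdown temozolomide, 17.9, 18.3 and 17.4 CPM in knockdown DMSO, 16.6, 17.7 and 15.5 CPM in control temozolomide and 24.8, 22.6 and 27.9 CPM in control DMSO. The libraries with both interventions were the lowest, those with neither the highest. The knockdown changed EGLN3 by -0.64 under temozolomide (SE 0.09, adjusted p = 9.2e-06, edgeR) and by -0.49 under DMSO (SE 0.08, adjusted p = 7.0e-05). Temozolomide changed it by -0.75 in knockdown cells (SE 0.09, adjusted p = 5.1e-06, edgeR) and by -0.60 in control cells (SE 0.08, adjusted p = 2.0e-05). EGLN1, the main oxygen sensor, fell by 0.20 with the knockdown under temozolomide (adjusted p = 0.00163, edgeR). It rose by 0.15 with temozolomide in control cells (adjusted p = 0.0211), a call lost without control DMSO replicate 3 (0.103) or control temozolomide replicate 2 (0.0889) or 3 (0.0811).

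Of the 14 other hypoxia-induced genes, 9 fell and 3 rose with the knockdown under temozolomide (median -0.29). Under DMSO 9 fell and 3 rose with it (median -0.23). With temozolomide 6 fell and none rose in knockdown cells (median -0.12), and 3 fell and 1 rose in control cells (median -0.08). Called genes made up 85.7% of the 14 in each knockdown comparison, against 42.3% of all tested genes under temozolomide and 42.6% under DMSO. With temozolomide the share was 42.9% in knockdown cells, against 22.3% of all, and 28.6% in control cells, close to the 27.5% of all. Their summed level was 919 ± 20.4 CPM in knockdown temozolomide, 1024 ± 3.80 in knockdown DMSO, 1167 ± 30.9 in control temozolomide and 1257 ± 18.1 in control DMSO (SD, n = 3 each), with all knockdown libraries below all control libraries.

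NDRG1, a stress-responsive gene induced by hypoxia and by differentiation, fell most of these 14 with the knockdown. It had 60.8, 65.3 and 61.2 CPM in knockdown temozolomide, 87.0, 94.3 and 89.1 CPM in knockdown DMSO, 127, 141 and 139 CPM in control temozolomide and 181, 190.5 and 192 CPM in control DMSO. The 4 groups did not overlap. The knockdown changed NDRG1 by -1.11 under temozolomide (SE 0.05, adjusted p = 1.6e-13, edgeR) and by -1.06 under DMSO (SE 0.05, adjusted p = 1.6e-13). Temozolomide changed it by -0.53 in knockdown cells (SE 0.05, adjusted p = 1.2e-07, edgeR) and by -0.48 in control cells (SE 0.04, adjusted p = 7.6e-08). In the deposited FPKM, however, replicate 3 of each temozolomide group stood apart, with 22.1, 23.4 and 42.0 FPKM in knockdown temozolomide and 44.4, 47.9 and 74.7 FPKM in control temozolomide. The DMSO groups had 30.2, 32.8 and 30.3 FPKM with the knockdown and 64.2, 78.0 and 68.1 FPKM in control cells. In limma's fit to log2(FPKM + 1) the temozolomide changes of NDRG1 were -0.15 in knockdown cells (adjusted p = 0.686) and -0.36 in control cells (adjusted p = 0.269), while the knockdown calls held.

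DDIT4 (REDD1), a stress-induced inhibitor of mTOR signalling, fell with the knockdown. Its levels were 165, 173 and 159.6 CPM in knockdown temozolomide, 196, 199.7 and 177 CPM in knockdown DMSO, 261, 266 and 245 CPM in control temozolomide and 279.7, 266 and 304 CPM in control DMSO. Knockdown and control libraries did not overlap. The change was -0.63 under temozolomide (SE 0.05, adjusted p = 2.3e-09, edgeR) and -0.57 under DMSO (SE 0.05, adjusted p = 9.3e-09). Temozolomide lowered DDIT4 by 0.20 in knockdown cells (adjusted p = 0.00819, edgeR), lost under library totals (0.0539) and in the FPKM fits (0.132 in limma on log2(FPKM + 1)). In control cells the temozolomide change was -0.14 (adjusted p = 0.0422, edgeR) with overlapping groups, and was lost without control DMSO replicate 1 (0.0816) or 3 (0.258) or control temozolomide replicate 1 (0.0639) or 3 (0.191), and with library totals, the GC correction and the FPKM fits.

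The collagen prolyl hydroxylase subunits P4HA1 and P4HA2, both known as hypoxia-induced, moved in opposite directions with the knockdown. P4HA1 had 97.4, 98.4 and 102 CPM in knockdown temozolomide, 103, 103 and 108 CPM in knockdown DMSO, 135, 148 and 147 CPM in control temozolomide and 144, 141 and 145 CPM in control DMSO. P4HA2 had 39.0, 38.8 and 36.6 CPM in knockdown temozolomide, 40.7, 38.3 and 40.4 CPM in knockdown DMSO, 27.8, 28.2 and 26.9 CPM in control temozolomide and 26.9, 25.3 and 27.1 CPM in control DMSO. For either gene no knockdown library overlapped a control library. P4HA1 changed by -0.53 under temozolomide (SE 0.04, adjusted p = 1.5e-09, edgeR) and by -0.45 under DMSO (SE 0.04, adjusted p = 1.5e-08). P4HA2 changed by 0.46 under temozolomide (SE 0.05, adjusted p = 6.6e-07, edgeR) and by 0.59 under DMSO (SE 0.06, adjusted p = 3.2e-08). Their temozolomide changes, between -0.08 and 0.06, were not called.

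ERO1A, the oxidase that drives disulfide formation in the endoplasmic reticulum, rose with the knockdown. It had 114, 123 and 130.1 CPM in knockdown temozolomide, 120.5, 119.7 and 124 CPM in knockdown DMSO, 78.5, 83.6 and 85.3 CPM in control temozolomide and 72.8, 79.7 and 67.5 CPM in control DMSO. All knockdown libraries exceeded all control libraries. The change was 0.57 under temozolomide (SE 0.05, adjusted p = 2.8e-08, edgeR) and 0.73 under DMSO (SE 0.06, adjusted p = 1.0e-09). Temozolomide gave 0.00 in knockdown cells. In control cells it gave 0.17 (adjusted p = 0.0318, edgeR) with overlapping groups, lost without control DMSO replicate 1 (0.0809) or 3 (0.183), without control temozolomide replicate 2 (0.0936) or 3 (0.121), and with the GC correction (0.24).

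The pH-regulating carbonic anhydrases of the cell surface were both low. CA9, often used as a tissue marker of hypoxia, had 2.16, 2.01 and 2.08 CPM in knockdown temozolomide, 2.86, 4.18 and 3.97 CPM in knockdown DMSO, 3.89, 3.51 and 4.39 CPM in control temozolomide and 5.00, 5.11 and 5.58 CPM in control DMSO. The lowest CA9 count in a library was 28.7. The libraries with both interventions were lowest and those with neither highest. The knockdown changed CA9 by -0.92 under temozolomide (SE 0.18, adjusted p = 3.4e-04, edgeR) and by -0.50 under DMSO (SE 0.16, adjusted p = 0.0174). The DMSO call was lost without control DMSO replicate 3 (0.0695), without knockdown DMSO replicate 1 (0.0959) and with the GC correction (0.0624). Temozolomide changed CA9 by -0.83 in knockdown cells (SE 0.19, adjusted p = 0.00286, edgeR). In control cells the value was -0.41 (adjusted p = 0.0608), with groups that did not overlap, and was called without knockdown DMSO replicate 1 (0.0465). CA12 averaged 3.02 ± 0.901 CPM in knockdown temozolomide, 3.45 ± 0.625 in knockdown DMSO, 1.24 ± 0.158 in control temozolomide and 1.84 ± 0.510 in control DMSO (SD, n = 3 each). It rose with the knockdown, by 1.27 under temozolomide (SE 0.26, adjusted p = 5.1e-04, edgeR) and by 0.92 under DMSO (SE 0.25, adjusted p = 0.00551).

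HILPDA, a small lipid-droplet protein that inhibits triglyceride lipase, was also low. It had 4.55, 3.97 and 4.81 CPM in knockdown temozolomide, 4.46, 5.65 and 4.02 CPM in knockdown DMSO, 6.45, 6.05 and 6.32 CPM in control temozolomide and 7.76, 5.57 and 6.99 CPM in control DMSO. The groups separated under temozolomide and overlapped under DMSO. The knockdown changed HILPDA by -0.51 under temozolomide (SE 0.15, adjusted p = 0.0103, edgeR), lost without knockdown temozolomide replicate 2 (0.0612). Under DMSO it was -0.53 (SE 0.15, adjusted p = 0.00819), lost without control DMSO replicate 1 (0.0551) or knockdown DMSO replicate 3 (0.0582) and in the FPKM fits (0.0685 in limma on log2(FPKM + 1)).

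The mitophagy receptors BNIP3 and BNIP3L fell with the knockdown, by 0.41 and 0.42 under temozolomide and by 0.25 and 0.19 under DMSO (SE 0.05 to 0.06). The BNIP3L call under DMSO was lost in the FPKM fits (adjusted p = 0.1001 in limma on log2(FPKM + 1)). Temozolomide lowered BNIP3 by 0.21 and BNIP3L by 0.17 in knockdown cells. The BNIP3 call was lost without knockdown DMSO replicate 3 (0.0637) or knockdown temozolomide replicate 3 (0.0573), and the BNIP3L call without knockdown DMSO replicate 1 (0.0570) or 2 (0.0867) or knockdown temozolomide replicate 1 (0.145). Both calls were also lost under library totals (adjusted p = 0.0653 and 0.129, edgeR) and in the FPKM fits (0.143 and 0.654 in limma on log2(FPKM + 1)). In control cells their temozolomide values were -0.05 and 0.06, not called. BHLHE40, a transcriptional repressor, fell in all 4 comparisons, by 0.15 to 0.21 on the log2 scale. Its temozolomide call in knockdown cells was lost without knockdown DMSO replicate 3 (adjusted p = 0.0605, edgeR), under library totals (0.121) and in the FPKM fits (0.199 in limma on log2(FPKM + 1)). MXI1, an antagonist of MYC, fell by 0.27 with the knockdown under DMSO (adjusted p = 0.0231, edgeR), lost without control DMSO replicate 1 (0.106) and without knockdown DMSO replicate 1 (0.0639) or 2 (0.0510). The MXI1 call was also lost under library totals (adjusted p = 0.0520, edgeR) and in the FPKM fits (0.166 in limma on log2(FPKM + 1)). KDM3A, a histone demethylase, fell by 0.11 with the knockdown under temozolomide (adjusted p = 0.0254, edgeR), lost without control temozolomide replicate 3 (0.0686) and without knockdown temozolomide replicate 1 (0.0904) or 3 (0.0906). The KDM3A call was also lost under library totals (adjusted p = 0.136, edgeR), with the GC correction (0.0665) and in the FPKM fits (0.196 in limma on log2(FPKM + 1)). ANKRD37 was at 0.461 to 1.35 CPM and, with SEs of 0.36 to 0.39, a change of the size seen for most members was not detectable at this depth.

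Within families of paralogs, the makeup was measured as each member's share of the family's summed FPKM. ALDOC held 1.11% ± 0.120 of the aldolase FPKM in knockdown temozolomide, 1.1% ± 0.101 in knockdown DMSO, 2.56% ± 0.0872 in control temozolomide and 2.54% ± 0.400 in control DMSO (SD, n = 3 each). ENO2 held 2.38% ± 0.0173 of the enolase FPKM in knockdown temozolomide, 1.81% ± 0.117 in knockdown DMSO, 1.63% ± 0.0403 in control temozolomide and 1.15% ± 0.115 in control DMSO. For ENO2 the 4 groups did not overlap. EGLN3 held 19.9% ± 2.24 of the FPKM of EGLN1 and EGLN3 in knockdown temozolomide, 29% ± 1.19 in knockdown DMSO, 22.9% ± 1.09 in control temozolomide and 35.5% ± 2.29 in control DMSO. Both DMSO groups were above both temozolomide groups. LDHA held between 4.51% and 5.25% of the lactate dehydrogenase FPKM over group means, and HK2 between 3.94% and 4.95% of that of HK1 and HK2. PFKL held 14.3% ± 0.297 of the phosphofructokinase FPKM in knockdown DMSO and 17.2% ± 0.0654 in control DMSO. Under temozolomide its share was 16.8% ± 0.728 in knockdown and 17.6% ± 0.270 in control cells, with overlapping libraries. These shares are given as values with no test.

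**Figure D4:**
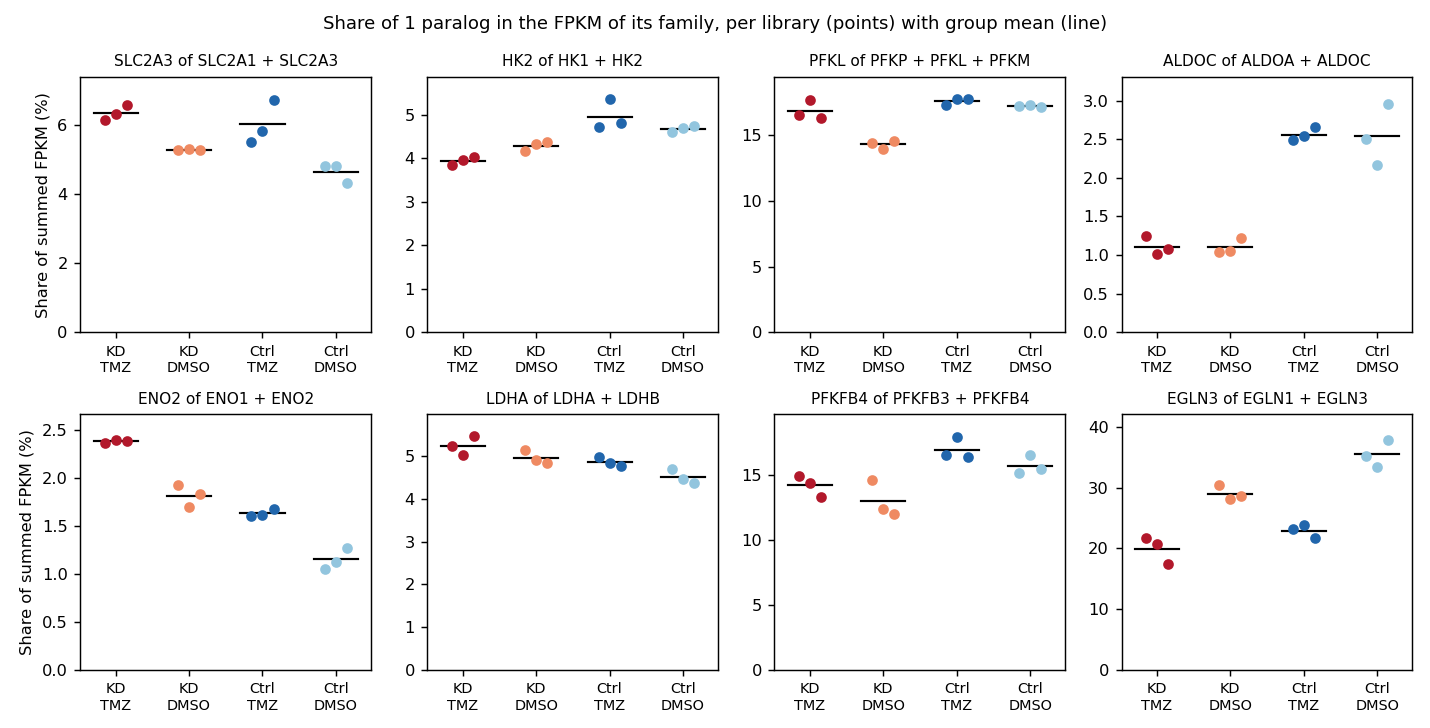
Share of a paralog in the summed FPKM of its family (%), per library (points) with the group mean (line), knockdown (KD) left of control (Ctrl). ALDOC is near 1.1% in knockdown and 2.5% in control libraries, the ENO2 share is highest with both interventions (2.38%), and the EGLN3 share is highest with neither (35.5%).

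The difference between the temozolomide responses asks whether the drug acted differently with the knockdown. Of the 43 members ENO1 alone was called (2.33%), where 1.05% of all tested genes were called, 0.437% rising and 0.616% falling. The members' median difference was 0.01 on the log2 scale, with values from -0.41 for CA9 (SE 0.25) to 0.35 for CA12 (SE 0.37), neither called. The next smallest adjusted p in edgeR among members were those of GAPDH (difference 0.17, SE 0.05, adjusted p = 0.0707), PKM (0.12, SE 0.04, 0.0879) and ALDOA (0.16, SE 0.05, 0.109). In DESeq2, 5 members were called, namely ENO1, ALDOA, GAPDH and PKM upwards and BNIP3L downwards. DESeq2 called more genes throughout in this difference, 362 of 12821, than the 135 of edgeR. The ENO1 call did not hold with the GC correction (0.11, adjusted p = 0.142, edgeR) or in limma on log2(FPKM + 1) (0.16, adjusted p = 0.217). It was also lost without knockdown temozolomide replicate 1 (0.0731), without knockdown DMSO replicate 1 (0.0812), 2 (0.0695) or 3 (0.133), without control temozolomide replicate 2 (0.122) or 3 (0.1002), and without control DMSO replicate 1 (0.129) or 3 (0.0590).

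A further 96 genes of the same pathways were examined, of which 81 were tested. With the knockdown 29 of 81 fell and 14 rose under temozolomide, and 32 fell and 19 rose under DMSO, with medians of -0.06 and -0.08. Temozolomide lowered 17 and raised 6 in knockdown cells and lowered 18 and raised 8 in control cells, with medians of -0.01 and -0.06. Called genes made up 53.1% and 63.0% of the 81 with the knockdown under temozolomide and DMSO, against 42.3% and 42.6% of all tested genes. With temozolomide they made up 28.4% in knockdown and 32.1% in control cells, nearer to the 22.3% and 27.5% of all. In the difference between the responses edgeR called 0 of 81, where 1.05% of all tested genes were called. Of the 81, 15 had an unadjusted p under 0.05, a share that was not counted over all tested genes. DESeq2 called 4 of those reported here (BSG, PDP1, PLOD1 and VHL, named after their values were seen), where it called 362 genes in all. Counted by list, 14 of 36 further genes of glycolysis and pyruvate use fell and 5 rose with the knockdown under temozolomide, and 14 fell and 7 rose under DMSO. Falls were thus 38.9% of these 36 under each treatment, and rises 13.9% under temozolomide and 19.4% under DMSO. Of 34 further hypoxia-induced genes 13 fell and 8 rose under temozolomide, and 15 fell and 9 rose under DMSO. Falls were 38.2% and 44.1% of these 34, and rises 23.5% and 26.5%. Among all tested genes 20.3% and 21.4% fell and 22.0% and 21.1% rose under temozolomide and DMSO, so the rises of the 34 were near the share of all. Of 11 tested components of the HIF pathway 2 fell and 1 rose under temozolomide, and 3 fell and 3 rose under DMSO, so that 27.3% and 54.5% were called, against 42.3% and 42.6% of all. These lists were less one-sided in number than the members, and no test of that difference was made.

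Among genes of pyruvate entry into mitochondria, PDHX, a structural subunit of pyruvate dehydrogenase, averaged 38.0 ± 2.95 CPM in knockdown temozolomide, 41.4 ± 2.53 in knockdown DMSO, 65.7 ± 2.05 in control temozolomide and 71.2 ± 4.97 in control DMSO (SD, n = 3 each). The knockdown changed PDHX by -0.79 under temozolomide (SE 0.06, adjusted p = 1.3e-09, edgeR) and by -0.78 under DMSO (SE 0.06, adjusted p = 1.5e-09). MPC1, a subunit of the mitochondrial pyruvate carrier, averaged 27.4 ± 2.12 CPM in knockdown temozolomide, 21.6 ± 2.12 in knockdown DMSO, 41.5 ± 0.918 in control temozolomide and 31.3 ± 1.64 in control DMSO. Like TXNIP it fell with the knockdown, by 0.60 and 0.54 under temozolomide and DMSO, and rose with temozolomide, by 0.35 in knockdown and 0.41 in control cells. PDK4, a second kinase of pyruvate dehydrogenase, rose by 0.23 with temozolomide in knockdown cells (adjusted p = 0.0322, edgeR), a call lost without any 1 of the 3 knockdown DMSO libraries (0.0520 to 0.145) or without knockdown temozolomide replicate 2 (0.116) or 3 (0.0900), and in DESeq2 (0.0732). PC, pyruvate carboxylase, fell by 0.32 with temozolomide in control cells (SE 0.05, adjusted p = 1.4e-04, edgeR). Of further sugar transporters, SLC2A12 fell by 0.53 with temozolomide in knockdown cells (SE 0.06, adjusted p = 3.3e-06, edgeR), and SLC2A13, which carries inositol, rose by 0.60 in control cells (SE 0.12, adjusted p = 9.1e-04).

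Further hypoxia-induced genes changed in both directions with the knockdown. MAFF, a small MAF transcription factor, rose by 1.33 and 1.16 with the knockdown under temozolomide and DMSO, STC2, a secreted glycoprotein, by 0.76 and 0.60, and ERRFI1, an inhibitor of the EGF receptor, by 0.55 and 0.56. LOX, which cross-links collagen, fell with the knockdown by 0.86 and 0.72 under temozolomide and DMSO. KLHL24, an adaptor of a ubiquitin ligase, fell by 0.56 with it under temozolomide, and ADM, the vasodilator adrenomedullin, by 0.55 under DMSO.

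VEGFA, the angiogenic growth factor and a classical HIF target, changed with the drug: it averaged 133 ± 5.19 CPM in knockdown temozolomide, 181 ± 3.08 in knockdown DMSO, 133 ± 6.31 in control temozolomide and 186 ± 5.53 in control DMSO (SD, n = 3 each). Temozolomide lowered VEGFA by 0.45 in knockdown cells (SE 0.04, adjusted p = 6.9e-08, edgeR) and by 0.48 in control cells (SE 0.04, adjusted p = 2.2e-08), beside the falls of SLC2A1, HIF1A and EPAS1 of 0.31 to 0.47. ADM fell by 0.35 with temozolomide in control cells (adjusted p = 0.0190, edgeR), lost without control DMSO replicate 1 (0.0829) or 3 (0.0809), without control temozolomide replicate 1 (0.0864) and with the GC correction (0.0648). VHL rose by 0.18 with temozolomide in control cells (SE 0.04, adjusted p = 0.00446, edgeR), and fell with the knockdown by 0.43 under temozolomide and 0.21 under DMSO. KLHL24 rose with temozolomide by 0.41 in control cells and by 0.21 in knockdown cells, the second call being lost when any of 4 libraries was left out (knockdown DMSO replicate 1 or 2, knockdown temozolomide replicate 2 or 3, adjusted p = 0.0515 to 0.122 in edgeR). In knockdown cells temozolomide also lowered TMEM45A by 0.51, lost without knockdown DMSO replicate 1 (0.0559), and raised KDM5B, a histone demethylase, by 0.25, lost without knockdown DMSO replicate 3 (0.0556).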

How the data were processed

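Poly(A) RNA of 12 U251 libraries was measured by sequencing. The authors deposited 2 tables. The first holds estimated counts per gene, with 10.7% to 12.0% of a library's values not whole, and the second holds FPKM, a value the authors gave per transcript length and depth. The tools named in the submitters' processing notes, without their roles, are RSEM, HISAT2, Bowtie2 2.2.8, StringTie 1.3.1 and fastp 0.18.0. The sources used here give no genome build, annotation or use of strand, so a gene and an overlapping or antisense partner cannot be told apart.

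Estimated counts were rounded and fitted in R 4.3.3 with edgeR 4.0.16 (filterByExpr, TMM factors, quasi-likelihood test, 4 group means over all 12 libraries). Of 20289 genes 3153 had no count, and 12821 were tested. The biological coefficient of variation was 3.90%. Adjusted p-values are Benjamini-Hochberg values over all tested genes, and tests are two-sided. The procedure was checked on simulated counts. Totals of 13.5 to 24.8 in units of 1e6 counts set the precision, and replicates differed by more than sampling noise (mean chi-square per gene 2.14 to 5.07). The labels do not say whether replicate numbers mark shared cultures, and no block was used in the main fit.

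Members, lists and rules were chosen with earlier results of these data known. Values per library are given for members called in a comparison of 2 groups with an absolute log2 fold change of at least 0.5, provided the highest group averaged 5 CPM or more, and for a few others picked after their values were seen. From the pathway list, up to 4 called genes each way per comparison with the largest change and the same CPM minimum are named, apart from results not reported here. Locations and GC content come from GENCODE v29 (GRCh38), joined by gene ID (20171 IDs matched), and promoters from RefSeq on GRCh38.p14.

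Alternatives were DESeq2 1.42.0, scaling by library totals or relative log expression, a filter of 1 CPM in 3 libraries or none, a fit of only the groups compared, a replicate block, leaving out single libraries, limma 3.58.1 on log2(FPKM + 1), with and without a filter, and on log2(FPKM + 0.1), a GC-content spline with 5 degrees of freedom per library, and stricter thresholds.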

Additional observations from a re-analysis of the deposited data

Results flagged for a closer look

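ENO1 responded differently to temozolomide with and without the knockdown: its log2 fold change was -0.24 in knockdown cells and -0.40 in control cells, a difference of 0.16 (SE 0.04, adjusted p = 0.0393 in edgeR's quasi-likelihood test of the difference). It was the only member past the threshold in this test. The difference kept its sign when each library was left out, from 0.14 to 0.17, and lost the call without 8 of the 12 libraries. No group had 4 or more libraries, so no library was tested as standing apart from its group.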

How the results depend on the processing

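No member changed direction while called, under any alternative. Of the members called in the knockdown under temozolomide, in the knockdown under DMSO, with temozolomide in knockdown cells and with temozolomide in control cells, 6 of 29, 8 of 31, 14 of 23 and 10 of 24 lost the call under at least 1 alternative other than a stricter threshold; the cause was not tested. Requiring an absolute log2 fold change of 0.5 left 12, 10, 4 and 2 members and 1338, 1327, 410 and 446 of all genes by construction, and 0 members and 21 genes in the difference between the responses. An adjusted p below 0.01 left 1578 and 2187 genes for temozolomide in knockdown and control cells, and 0 members and 13 genes in the difference.

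For temozolomide in knockdown cells, 15 members were called under library totals, 11 in limma on log2(FPKM + 1), 11 on log2(FPKM + 0.1) and 10 without a filter, where 1875 genes were called in all, against 23 members and 2854 genes. In the difference, 1 member and 135 genes became 3 and 546 without the low-count filter, 5 and 362 in DESeq2, 0 and 35 with the GC correction, 0 and 3 on log2(FPKM + 1), 0 and 0 on log2(FPKM + 0.1), and 0 and 0 without a filter on FPKM. With the replicate block 222 genes were called in the difference; the numbers share no labelled source, the 18 same-numbered pairs had correlations from -0.077 to 0.136, and for 6 of 12 libraries the best match bore the same number.

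Leaving out each library in turn gave 26 to 29 members and 4686 to 5510 genes in the knockdown under temozolomide, 29 to 32 and 4621 to 5523 under DMSO, 21 to 24 and 2095 to 2987 with temozolomide in knockdown cells, 20 to 25 and 2680 to 3590 in control cells, and 0 to 3 and 19 to 395 in the difference. The members with the fewest counts were ANKRD37, CA12 and CA9, whose lowest counts in a library were 7.06, 18 and 28.7. CA12 and CA9 were nonetheless called with the knockdown under both treatments, and the part of depth in these results was not tested.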
